A study of Mus musculus with 8 samples.

Results

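The genes described here act in the detection of bacterial lipopolysaccharide (LPS) at the cell surface or in the signalling that follows inside the cell, and some of them restrain it. They were 4 co-receptors (Cd14, Ly96, Ly86 and Cd180), 3 adaptors (Myd88, Tirap and Ticam1) and 3 members of the IRAK kinase family (Irak2, Irak3 and Irak4). The 10 genes were chosen by name for their place in this pathway and found through their Ensembl identifiers, each of them matching 1 of the 52636 identifiers of the count table. The RNA came from microglia of C57BL/6 mice of WT genotype (the paper names the pups as C57BL/6N), the resident immune cells of the brain, shaken off mixed glial cultures grown from neonatal P2-P3 brains. One group of 4 samples received LPS at 5 µg/ml and the other group of 4 received vehicle, both for 24 h and both in medium with 10% serum and 10 ng/ml of the growth factor CSF-1. Values are reads counted per gene, given as CPM after TMM scaling of the library sizes, and values of a group are listed in the order of replicates 1 to 4.

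LPS is recognised by a complex of the receptor TLR4 and the soluble protein MD-2, the product of Ly96, after CD14 has handed it over from serum. TLR4 signals from the plasma membrane through TIRAP and MyD88, which assemble with IRAK kinases, and from endosomes through TRIF, the product of Ticam1, which leads to type I interferon. Microglia carry this machinery in the brain and release cytokines through it, and several of its parts, among them CD180 with its partner MD-1 and the kinase homologue IRAK-M, restrain rather than transmit the signal.

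The vehicle libraries held 22796052, 22595657, 26129375 and 21370879 counts, and the LPS libraries held 20071921, 22529706, 30604447 and 22581615. The TMM factors were 1.25, 1.28, 1.21 and 1.32 in the vehicle group and 0.833, 0.816, 0.701 and 0.819 in the LPS group. The groups thus differed in composition, and the choice of scaling moved all fold changes by a common amount. LPS library 3 had the highest total and the lowest factor, and its counts differed more from those of the other LPS libraries (chi-square per degree of freedom of 155, 108 and 115) than those of LPS libraries 2 and 4 did from each other (6.98). LPS library 1 also differed from LPS libraries 2 and 4, by 63.6 and 60.6. All 10 genes passed the filter on low counts, and the lowest count of any of them in any library was 289, for Ly96.

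The label of the cells was checked against fixed marker lists. All 10 microglial markers had over 3 counts in every library, and their summed level was 12253, 12781, 15100.1 and 12077 CPM in the vehicle libraries and 2894, 2824, 2521 and 3098 CPM in the LPS libraries. The most abundant of them with vehicle, Csf1r, fell from 3181 ± 378 to 426 ± 214 CPM (mean ± SD, n = 4). After LPS, 9 of the 10 were lower, from Tyrobp at a log2 fold change of -1.06 to Cx3cr1 at -7.26. The other one, Aif1, had a log2 fold change of 0.00231 (SE 0.222), at 126 ± 41.3 and 126 ± 24.0 CPM, so the markers did not fall by a common amount. In bulk RNA, fewer cells of a type and less RNA per cell cannot be told apart here or for the genes below. Of 5 monocyte and neutrophil markers the sum was 2.94, 2.15, 3.11 and 1.88 CPM with vehicle and 6.46, 4.25, 4.85 and 3.95 CPM with LPS. Ccr2 had the highest means, at 2.40 and 3.56 CPM, and was not called. Camp went from 0.0342 to 1.04 CPM and was not tested. In LPS library 1 it stood above Ccr2, at 2.99 against 2.51 CPM. Ly6c2 went from 0.0604 to 0.239 CPM, untested, and its LPS counts all came from library 1. Ly6g and Ngp stayed at or under 3 counts. This list thus lay far below the microglial one in every library. Ms4a1, a marker of B cells, was called higher, from 0.230 to 0.879 CPM (edgeR adjusted p of 0.00366). The 8 astrocyte markers summed to 37.9, 46.6, 20.5 and 45.0 CPM with vehicle and 124, 41.0, 45.5 and 49.3 CPM with LPS, and of the 8, 1 was called higher and 3 lower, with a median log2 fold change of -0.91. The one called higher was Gja1, from 0.873 to 48.6 CPM, and those called lower were Gfap, Aqp4 and Aldh1l1, the last being the most abundant with vehicle at 11.6 CPM. Apart from Gja1, all had a log2 fold change below 0, so Gja1 alone held the sums up with LPS. Sums of the 8 markers of the oligodendrocyte lineage averaged 123 CPM with vehicle and 20.4 CPM with LPS, of 6 neuronal markers 6.30 and 3.91 CPM, of 5 endothelial markers 15.9 and 80.6 CPM, and of 5 fibroblast markers 1.38 and 9.59 CPM. Of the endothelial markers 3 were tested and 2 called higher, Pecam1 (2.60 to 52.3 CPM) and Cdh5 (0.948 to 7.50 CPM), Kdr went from 12.3 to 20.7 CPM without a call, and Cldn5 and Tek stayed at or under 3 counts in every library. Of the fibroblast markers only Dcn (0.136 to 8.90 CPM) was tested, and it was called higher, Lum had a higher mean with LPS (0.0396 to 0.545 CPM), and Col1a1, Col1a2 and Col3a1 had lower means with LPS, at or under 3 counts in each LPS library. The part of other cell types in the values below was not tested.

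The comparison asked how 24 h of LPS changed the RNA of its own detection machinery. Of the 13847 genes that passed the filter, edgeR's quasi-likelihood test with Benjamini-Hochberg adjustment called 64.1% at an adjusted p under 0.05, and 8 of the 10 pathway genes were among them. Higher after LPS were 30.3% of the tested genes and 6 of the 10, namely Ly96, Myd88, Tirap, Ticam1, Irak2 and Irak3. Lower were 33.8% of the tested genes and 2 of the 10, Ly86 and Cd180. The groups did not overlap in CPM for 60.2% of the tested genes and for 8 of the 10. With most genes called, a call alone did not set a gene of the pathway apart, and the text below turns on directions and sizes. The median log2 fold change was 1.22 over the 10 genes and -0.11 over all tested genes. By role it was -0.47 for the co-receptors, 1.24 for the adaptors and 2.25 for the IRAK genes.

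**Figure D1:**
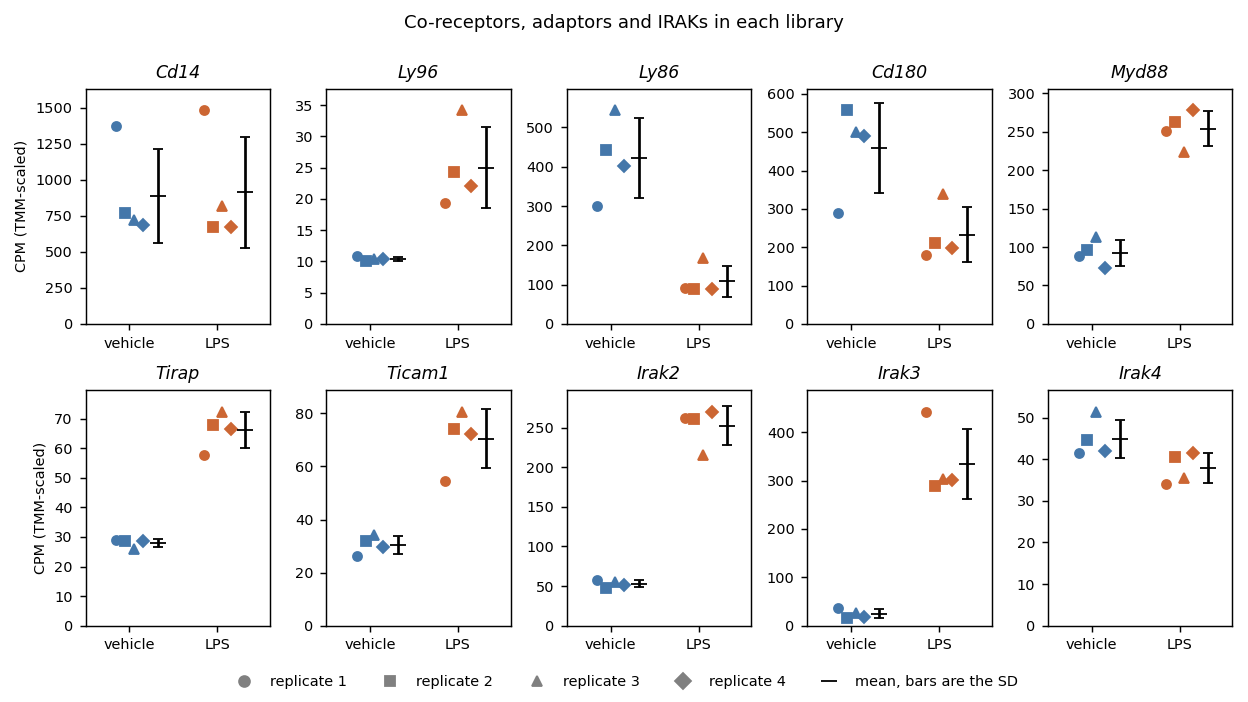
CPM of each of the 10 genes (y axes, each from 0) in the 4 vehicle and 4 LPS libraries, with 1 symbol per replicate number and the mean with its SD beside them. The groups overlap for Cd14 and Cd180, and the largest gap is that of Irak3, from 36.9 CPM in the highest vehicle library to 289 CPM in the lowest LPS library.

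Among the co-receptors, Cd14 (ENSMUSG00000051439, chr18:36725067-36726798 in GRCm38) encodes the membrane-anchored protein that takes up LPS and passes it to MD-2. It stood at 1374, 772, 720.2 and 684 CPM in the vehicle libraries and at 1485, 675, 819.7 and 670.3 CPM in the LPS libraries. Replicate 1 was the highest of both groups, and the other 3 libraries of each group covered similar ranges. The log2 fold change was 0.04 with an SE of 0.313 and a 95% interval of -0.66 to 0.74 (edgeR adjusted p of 0.917). The interval reached well to either side of 0, so no change was detected, and a change in either direction lay within it. Between same-numbered libraries the log2 difference was 0.11, -0.19, 0.19 and -0.03, higher in 2 pairs and lower in the other 2. The sign rested on single libraries and on the scaling, since the log2 fold change was -0.29 without LPS library 1, 0.37 without vehicle library 1, -0.03 without vehicle library 4 and -0.62 when scaled by library totals only.

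Ly96 (ENSMUSG00000025779, chr1:16688051-16709611) encodes MD-2, the subunit of the receptor complex whose pocket binds the lipid part of LPS. Its level was 10.9, 10.0, 10.4 and 10.4 CPM with vehicle and 19.3, 24.3, 34.2 and 22.1 CPM with LPS. The coefficient of variation was 3.35% among the vehicle libraries and 26.1% among the LPS libraries, library 3 was the highest of the latter, and the groups did not overlap. LPS raised it 2.40-fold by the group means, at a log2 fold change of 1.26 (SE 0.173, edgeR adjusted p of 0.000155). Without LPS library 3 the log2 fold change was 1.08.

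Ly86 (ENSMUSG00000021423, chr13:37345208-37419036) encodes MD-1, a protein related to MD-2 that pairs with CD180 in place of TLR4. In the vehicle libraries it was counted at 299.8, 442, 544 and 401 CPM and in the LPS libraries at 90.4, 88.3, 168 and 89.0 CPM. LPS libraries 1, 2 and 4 lay close together, library 3 lay well above them, and all 4 were below the lowest vehicle library. The group mean was 3.87-fold higher with vehicle, and the log2 fold change of -1.95 (SE 0.261, edgeR adjusted p of 0.000132) was the largest fall among the 10 genes. It was -2.23 without LPS library 3.

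Cd180 (ENSMUSG00000021624, chr13:102693558-102739629) encodes the surface protein of that pair, a TLR4 relative without the signalling domain. It was read at 289, 558, 501 and 489.8 CPM with vehicle and at 180.2, 212, 339.7 and 199 CPM with LPS. Vehicle library 1 was the lowest of its group and LPS library 3 the highest of its own, and through these libraries the groups overlapped. The log2 fold change was -0.98 with an SE of 0.251 and a 95% interval of -1.54 to -0.42 (edgeR adjusted p of 0.00670). The same-numbered libraries differed by -0.68, -1.40, -0.56 and -1.30 on the log2 scale, lower with LPS in 4 of 4 pairs. Both genes of the MD-1 and CD180 pair were thus lower after LPS under every scaling tried, whereas Ly96 was higher under every one of them.

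The receptor itself served as the reference for the co-receptors. Tlr4 was counted at 188, 206, 194 and 178 CPM with vehicle and at 55.5, 74.4, 149 and 61.7 CPM with LPS, a log2 fold change of -1.17 (SE 0.282, edgeR adjusted p of 0.00487). LPS library 3 was again the highest of its group, and the groups did not overlap.

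All 3 adaptors were higher after LPS, and by similar amounts. Myd88 (ENSMUSG00000032508, chr9:119335934-119341411) encodes the adaptor that links most Toll-like receptors and the interleukin-1 receptor family to the IRAKs. Its level was 88.1, 95.6, 114 and 73.1 CPM in the vehicle libraries and 251, 262, 224 and 278 CPM in the LPS libraries. Every LPS library was above every vehicle library, and LPS library 3 was the lowest of its group rather than the highest. The log2 fold change was 1.46 with an SE of 0.146 (edgeR adjusted p of 2.15e-05), and the same-numbered libraries differed by 1.51, 1.46, 0.98 and 1.93.

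Tirap (ENSMUSG00000032041, chr9:35184551-35200291) encodes the sorting adaptor, also called Mal, that brings MyD88 to TLR4 at the membrane. It stood at 28.9, 28.6, 26.1 and 28.6 CPM with vehicle and at 57.7, 67.9, 72.4 and 66.4 CPM with LPS. The vehicle libraries were tight, library 3 being slightly below the others, and no LPS library came near them. The log2 fold change was 1.24, with the smallest SE of the 10 genes, 0.0971 (edgeR adjusted p of 4.82e-06).

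Ticam1 (ENSMUSG00000047123, chr17:56269319-56276786) encodes TRIF, the adaptor of TLR3 and of internalised TLR4. Counts came to 26.4, 31.9, 34.3 and 29.6 CPM in the vehicle libraries and to 54.6, 74.2, 80.6 and 72.2 CPM in the LPS libraries. LPS library 1 was the lowest of its group, well above the highest vehicle library. The log2 fold change was 1.21 with an SE of 0.137 (edgeR adjusted p of 4.76e-05).

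The 3 IRAK genes moved differently from each other. Irak4 (ENSMUSG00000059883, chr15:94543643-94581815) encodes the first kinase to join MyD88, on which the others depend. It was counted at 41.5, 44.6, 51.4 and 42.0 CPM with vehicle and at 34.1, 40.5, 35.6 and 41.5 CPM with LPS. The groups were separate only by the narrow step from vehicle library 1 to LPS library 4. The log2 fold change was -0.24 with an SE of 0.109 and a 95% interval of -0.49 to -0.000321, and the edgeR adjusted p of 0.0733 missed the threshold. The difference was negative in 4 of 4 same-numbered pairs, at -0.28, -0.14, -0.53 and -0.02. The size depended on the scaling and the filter, with a log2 fold change of -0.40 under upper quartile scaling, -0.91 with library totals only and -0.30 when no library was allowed fewer than 10 counts, all past the threshold, and it rested in part on vehicle library 3, without which the log2 fold change was -0.11.

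Irak2 (ENSMUSG00000060477, chr6:113638467-113695026) encodes a kinase-like partner that carries the MyD88 signal into its later phase. Its level was 57.5, 48.2, 55.0 and 51.4 CPM in the vehicle libraries and 263, 261, 216 and 270.2 CPM in the LPS libraries. LPS library 3 was below the other 3, which lay close together, and the groups were far apart. The group means differed 4.76-fold, at a log2 fold change of 2.25 (SE 0.114, edgeR adjusted p of 4.01e-07).

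Irak3 (ENSMUSG00000020227, chr10:120141648-120202130) encodes IRAK-M, a homologue found mainly in monocytes and macrophages that restrains signalling from the MyD88 complex. It was read at 36.9, 16.0, 25.8 and 18.2 CPM with vehicle and at 442, 289, 304 and 301 CPM with LPS. Replicate 1 was the highest in both groups, and the lowest LPS library was many times above the highest vehicle library. The mean rose from 24.2 ± 9.42 to 334 ± 72.6 CPM, 13.8-fold, and the log2 fold change of 3.78 (SE 0.288, edgeR adjusted p of 3.97e-06) was the largest of the 10 genes. Of all tested genes, 2.90% had a higher log2 fold change than Irak3. For Irak2 the share was 6.03%, and for the 3 adaptors it lay between 10.7% and 13.5%. On the other side, 9.86% of the tested genes had a lower log2 fold change than Ly86, and 24.6% had a lower one than Cd180.

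**Figure D2:**
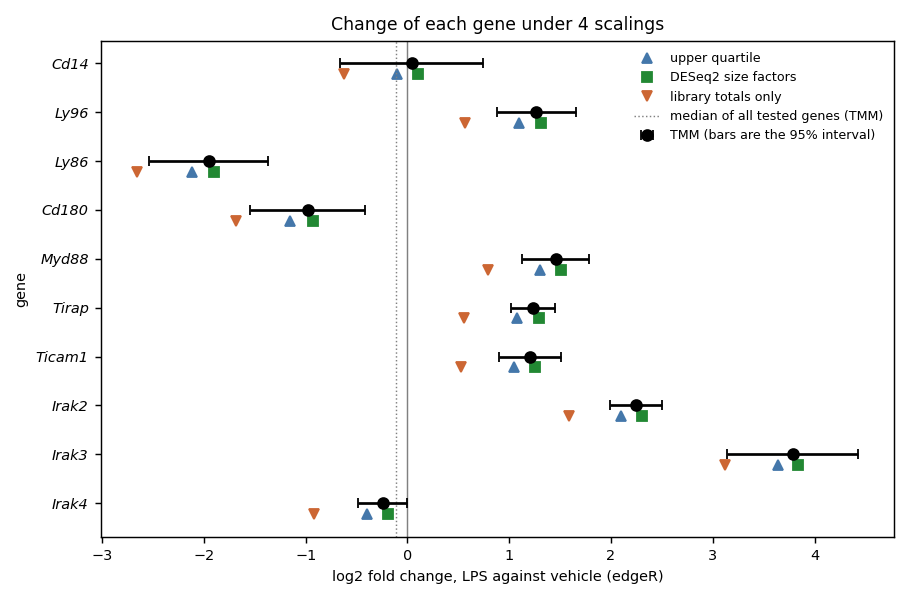
Log2 fold change of each gene (x axis, LPS against vehicle) from edgeR with TMM scaling, with 95% intervals, and the same change under 3 other scalings of the libraries. Scaling by library totals only shifts all genes down by about the same amount, the median by -0.68, and Cd14 and Irak4 are the genes whose sign or call depends on the scaling.

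The split of calls depended on the scaling. With TMM, 4191 genes were called higher and 4686 lower, or 47.2% higher among the called. With library totals only, 1988 were higher and 8457 lower, or 19.0%, and the median shift from TMM was -0.68 on the log2 scale. Upper quartile scaling shifted the median by -0.16. The 6 genes called higher were called higher under each of these scalings, with the adaptors at 0.52 (Ticam1), 0.55 (Tirap) and 0.79 (Myd88) under library totals only.

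Levels were compared between genes as CPM per kilobase of exon. With vehicle, Cd14 was the highest at 512 ± 188 CPM per kb, followed by Ly86 at 116 ± 27.9, Cd180 at 102 ± 26.1 and Myd88 at 35.9 ± 6.54 CPM per kb (mean ± SD, n = 4). Ly86 and Cd180 overlapped, whereas Cd14 lay above both and Myd88 below both in every library. The other 6 lay close together, from Irak2 at 12.02 ± 0.931 through Ticam1 at 10.2 ± 1.12, Ly96 at 10.2 ± 0.342, Irak4 at 8.94 ± 0.912 and Irak3 at 6.59 ± 2.56 to Tirap at 5.69 ± 0.270 CPM per kb. Each of these overlapped the next one in the order.

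After LPS the order of the levels changed. Cd14 stayed the highest at 527 ± 224 CPM per kb, but Myd88 at 98.6 ± 8.85 and Irak3 at 90.8 ± 19.8 CPM per kb now followed it and overlapped each other. Irak2 came next at 57.2 ± 5.60 CPM per kb, below Irak3 in every library. Cd180 at 51.6 ± 16.1 CPM per kb overlapped Irak2 through library 3. Ly86 at 30.0 ± 10.9 CPM per kb was below Cd180 in each of the 4 libraries, though their ranges overlapped. Ly96 at 24.5 ± 6.38 CPM per kb was in turn below Ly86 in each library and did not differ beyond its spread from Ticam1 at 23.5 ± 3.72 CPM per kb. Tirap at 13.4 ± 1.25 and Irak4 at 7.55 ± 0.720 CPM per kb closed the order, each below the one before it without overlap. Irak3 thus moved from place 9 to place 3, and Irak4 from place 8 to place 10.

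**Figure D3:**
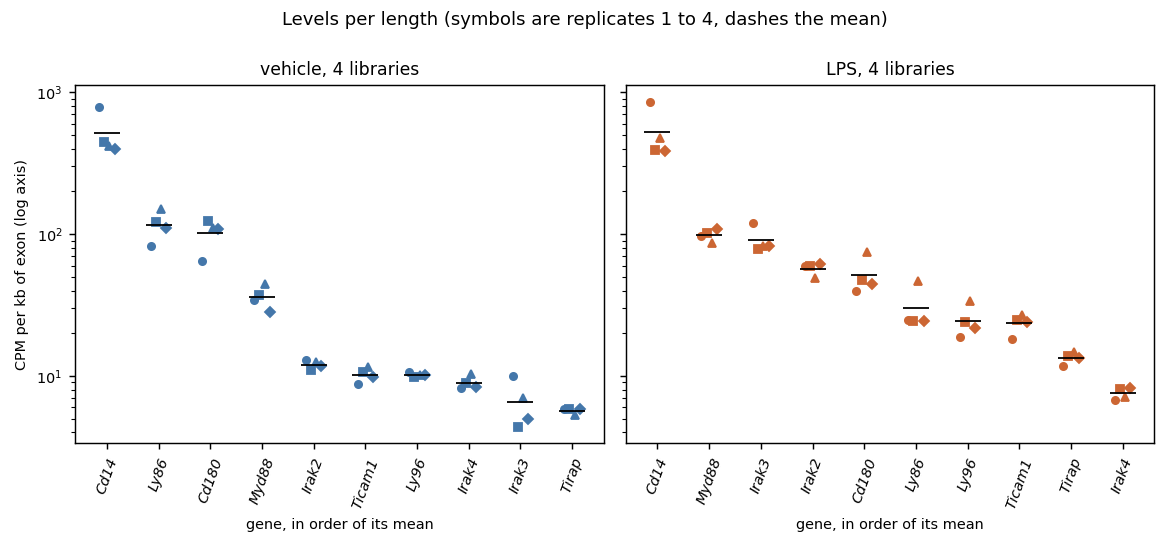
CPM per kb of exon (log axis) of the 10 genes in the vehicle libraries (left) and the LPS libraries (right), each ordered by its own mean, with 1 symbol per library. Cd14 is the highest in both groups, and Irak3 moves from 6.59 to 90.8 CPM per kb.

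Ratios of levels per length within a library do not depend on the scaling between libraries, and 8 of them were compared between the groups by a two-sided exact permutation test over the 70 divisions of the libraries. The smallest p this test allows is 0.0286, which becomes 0.0457 after adjustment over the 8 ratios when 5 of them reach it, as happened here. The test took no account of the replicate numbers. With sign flips of the 4 same-numbered pairs, each of these 5 ratios had a p of 0.125. That is the smallest p that 4 pairs allow, so the paired form cannot pass the threshold. The ratio of Ly96 to Tlr4 was 0.314, 0.264, 0.291 and 0.318 with vehicle and 1.89, 1.78, 1.25 and 1.95 with LPS. Per kilobase of exon, the MD-2 message thus went from below to above that of the receptor in all 4 libraries. In CPM not divided by length, Ly96 stayed below Tlr4 with LPS, at means of 25.0 and 85.0. The ratio rose 5.72-fold (log2 difference 2.52, exact p of 0.0286). The ratio of Cd14 to Tlr4 was 23.5, 11.99, 11.9 and 12.3 with vehicle and 85.8, 29.1, 17.7 and 34.9 with LPS. It was higher by 1.30 on the log2 scale, but LPS library 3 fell below vehicle library 1, and the exact p was 0.0571 (0.0762 adjusted). In same-numbered pairs the difference was above 0 in 4 of 4, from 0.57 to 1.87.

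The 2 partners of the MD-1 and CD180 complex did not fall alike. The ratio of Ly86 to Cd180 was 1.29, 0.983, 1.35 and 1.02 with vehicle and 0.623, 0.516, 0.615 and 0.555 with LPS. The LPS libraries all lay below the vehicle libraries, by -0.99 on the log2 scale (exact p of 0.0286). Although Ly86 and Cd180 each varied between replicates, their ratio varied little within the LPS group. The ratio of Ly96 to Ly86, the MD-2 and MD-1 messages, was 0.129, 0.0805, 0.0678 and 0.0924 with vehicle and 0.758, 0.981, 0.723 and 0.882 with LPS. It rose 9.25-fold (exact p of 0.0286), the geometric mean going from 0.0898 to 0.830.

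No change in the proportions of the adaptors was detected. The ratio of Ticam1 to Myd88 was 0.258, 0.287, 0.260 and 0.348 with vehicle and 0.187, 0.244, 0.310 and 0.223 with LPS (log2 difference -0.27, exact p of 0.229). The ratio of Tirap to Myd88 was 0.172, 0.156, 0.120 and 0.205 with vehicle and 0.120, 0.135, 0.169 and 0.125 with LPS (log2 difference -0.24, exact p of 0.314). Both pairs of groups overlapped, and the sizes depended on single libraries, since leaving out 1 gave -0.40 to -0.16 for Ticam1 and -0.38 to -0.12 for Tirap. Same-numbered differences ran from -0.64 to 0.25 for Ticam1 and from -0.71 to 0.49 for Tirap, so both signs occurred.

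Of the 8 ratios, that of Irak3 to Irak4 changed most. The ratio of Irak2 to Irak4 was 1.58, 1.23, 1.22 and 1.40 with vehicle and 8.76, 7.33, 6.90 and 7.41 with LPS, a 5.62-fold rise (exact p of 0.0286). The ratio of Irak3 to Irak4 was 1.21, 0.490, 0.685 and 0.594 with vehicle and 17.7, 9.75, 11.7 and 9.90 with LPS, a 16.9-fold rise (exact p of 0.0286). Per kilobase of exon, Irak3 was below Irak4 in 3 of 4 vehicle libraries and far above it in all 4 LPS libraries. The Irak2 to Irak4 difference was the steadiest of the 8 across same-numbered pairs, with an SD of 0.0699 on the log2 scale.

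**Figure D4:**
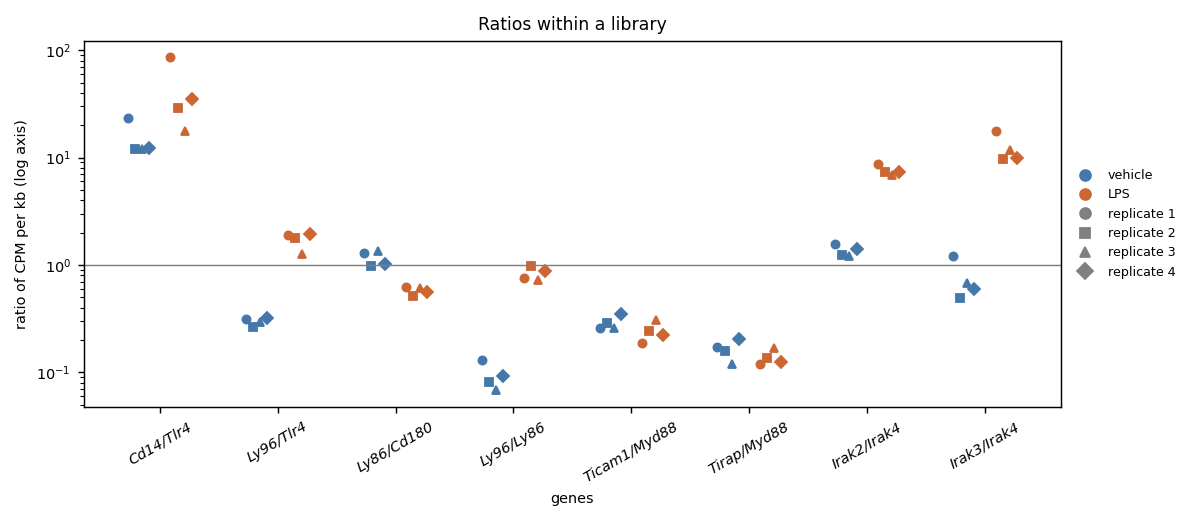
Ratios of CPM per kb of exon of 2 genes within a library (y axis, log) for the 8 ratios, with vehicle libraries on the left and LPS libraries on the right of each pair of columns. The groups overlap for Cd14/Tlr4, Ticam1/Myd88 and Tirap/Myd88 and are apart for the other 5 ratios.

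The 10 genes did not vary together within a group. In the vehicle group, library 1 was the highest for 5 of them (Cd14, Ly96, Tirap, Irak2 and Irak3) and the lowest for 4 (Ly86, Cd180, Ticam1 and Irak4), beside 26.0% and 28.2% of all tested genes. In the LPS group, library 3 was the highest for 5 (Ly96, Ly86, Cd180, Tirap and Ticam1) and the lowest for 2 (Myd88 and Irak2), beside 40.8% and 33.0% of all tested genes. LPS library 3 thus stood at the edge of its group for most genes, not for these alone. LPS library 1 was the highest for 2 (Cd14 and Irak3) and the lowest for 5 (Ly96, Cd180, Tirap, Ticam1 and Irak4), beside 25.3% and 33.7%. Within the vehicle group the coefficient of variation ran from 3.35% for Ly96 to 38.8% for Irak3, and within the LPS group from 8.98% for Myd88 to 42.5% for Cd14. Leaving out any single library left the 8 calls in place.

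Other genes of the pathway were summarised from fixed lists, beside the median of -0.11 over all tested genes, of which 30.3% were higher and 33.8% lower. The lists were chosen with earlier results of these data known, so their counts and medians are descriptions only. Of 6 genes for the receptor and its folding, 5 were tested, 2 were lower (Tlr4 and the chaperone gene Cnpy3, at -0.57) and none was higher, with a median log2 fold change of 0.04. Of 21 genes acting beside or below the adaptors, 20 were tested, 10 were higher and 5 lower, with a median of 0.36. Among these, Irak1, which encodes the kinase that IRAK4 acts on, fell from 89.4 ± 4.73 to 45.8 ± 6.11 CPM (log2 fold change -0.96, edgeR adjusted p of 6.06e-05). The IRAK family thus held 2 genes that rose, 1 that fell and Irak4. Ticam2, an adaptor gene counted in the same list, whose product bridges TLR4 and TRIF as TIRAP bridges TLR4 and MyD88, rose by a log2 fold change of 1.31, close to the 1.24 of Tirap. Of 10 genes that restrain the signal, 9 were tested, 6 were higher and 2 lower, with a median of 1.31. Of 15 other receptors that signal through MyD88 or TRIF, 11 were tested, 5 were higher and 4 lower, with a median of 0.18. As over all tested genes, both directions were common among these receptors, with Tlr3 at 2.43 and Tlr2 at -3.05. Of response genes, all 6 linked to the MyD88 arm were higher (median 6.99), as were all 5 tested of the 6 linked to the TRIF arm (median 5.21), while Ifnb1 did not pass the filter.

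The genes most alike to the largest rise and the largest fall are given as a description. Over the 8 libraries, the log2 CPM of Irak3 followed that of Csf3 (r of 0.999), Ier3 (0.999) and Eno1 (0.998) most closely among 8009 genes. That of Ly86 followed Hltf (r of 0.996), Dek (0.995) and Tomm70a (0.993) most closely. The points form 2 clusters, the groups, so these values mainly restate the group difference, and 896 genes had an r over 0.95 with Irak3 and 351 with Ly86.

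Promoters were looked up because 6 of the genes moved in the same direction. RefSeq windows (GRCm38.p6) from 250 bases before to 50 bases after a start were used for 8 of the 10 genes, with 11 windows in all. No window of Cd14 or Ly96 was searched, and Ly96 was among the genes called higher. Both strands were searched for the NF-kB motif, for the interferon-stimulated element (ISRE, GAAANNGAAA), for the PU.1 motif GAGGAAGT and for TATAAA. These occurred in 4.51%, 3.44%, 3.20% and 13.6% of all 32851 windows of the same length. Among the 8 genes, the ISRE letters occurred in the Myd88 window, whose forward strand holds them from base -40 of the start, and the letters of NF-kB and PU.1 occurred in none. The Myd88 window also held TATAAA on both strands, and no other window of the 8 genes did. The 250 bases before the start are printed for the 3 genes with the largest rises, Irak3, Irak2 and Myd88, each in the direction of its gene, and capitals mark the ISRE letters.
Myd88, chr9:119340019-119340268, minus strand: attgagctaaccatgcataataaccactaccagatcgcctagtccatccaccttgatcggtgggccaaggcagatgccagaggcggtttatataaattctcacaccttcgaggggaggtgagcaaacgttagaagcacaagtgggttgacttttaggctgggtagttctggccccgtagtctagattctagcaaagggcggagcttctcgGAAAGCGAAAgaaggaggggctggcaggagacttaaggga
Irak2, chr6:113638217-113638466, plus strand: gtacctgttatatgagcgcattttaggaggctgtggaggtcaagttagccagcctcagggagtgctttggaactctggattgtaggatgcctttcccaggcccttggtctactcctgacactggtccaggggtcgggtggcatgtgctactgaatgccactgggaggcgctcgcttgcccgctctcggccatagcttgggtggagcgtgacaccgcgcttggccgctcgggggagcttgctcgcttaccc
Irak3, chr10:120202131-120202380, minus strand: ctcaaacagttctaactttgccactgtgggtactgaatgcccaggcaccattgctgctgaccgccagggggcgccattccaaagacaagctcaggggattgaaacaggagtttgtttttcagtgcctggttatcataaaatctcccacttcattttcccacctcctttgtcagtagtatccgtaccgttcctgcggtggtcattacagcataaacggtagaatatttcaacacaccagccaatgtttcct
The G and C share of these 250 bases was 51.2% for Myd88, 60.0% for Irak2 and 47.6% for Irak3. A match describes letters in the window and is no evidence of binding, and Irak3 has a further start that is not printed. For Myd88, GENCODE has a transcript that begins further out, at 119341411, so the printed bases, with the ISRE and TATAAA letters in them, lie before the RefSeq start but inside the gene as annotated above.

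The 10 genes lie on 8 chromosomes, with Ly86 and Cd180 both on chromosome 13 and Myd88 and Tirap both on chromosome 9. Whether the counting used the strand was not stated, so reads from exons shared with a gene on the opposite strand cannot be told apart. Cd14, Ly96, Ly86 and Ticam1 share no exonic bases with another gene. Myd88 shares 11.3% of its exonic bases with Acaa1a, whose level was 49.4 CPM with vehicle and 49.4 CPM with LPS. Irak3 shares 5.22% with Tmbim4, which rose from 37.5 to 109.9 CPM, and 0.762% with Gm47009, at under 1 CPM. Irak4 shares 7.87% with Twf1, which stood at 116 and 112 CPM, above Irak4 at 44.9 and 37.9 CPM. The partners of Myd88 and Irak4 thus changed little, and Tmbim4 rose by less than Irak3. For Cd180 the share was 4.04% with Mast4, which rose from 5.79 to 50.5 CPM while Cd180 fell. Tirap shares 9.05% with Gm39318, at under 1 CPM, and 0.791% with Srpr, which rose from 80.3 to 187 CPM, a log2 fold change of 1.22 beside the 1.24 of Tirap. The shared stretch is short, but Srpr changed as much as Tirap did and stood above it in level. Irak2 shares 4.44% with Gm43963, which was called higher as Irak2 was, from 0.993 to 2.88 CPM (log2 fold change 1.53, edgeR adjusted p of 0.000439). Of the 50-base windows of their transcripts, 2.42% of those of Irak2, 2.11% of Irak4 and 1.82% of Tirap occur in a gene elsewhere, and none of those of the other 7 genes do. The part of shared bases in the values was not tested.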

How the data were processed

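The authors deposited 1 table of raw counts, for which single-end reads of 50 bases from 8 libraries were aligned with GSNAP to GRCm38 and those with a unique position counted for each Ensembl gene in HTSeqGenie. Labels and paper name different library kits and sequencers. The labels mark libraries as biological replicates but not as separate cultures, so p-values measure the spread between these libraries. The 10 genes and all lists were chosen with earlier results of these data known. Named genes are the 10, the genes of the fixed lists, genes sharing exons with them, and the 3 genes most correlated with the largest rise and the largest fall where the mean log2 CPM was 3 or more.

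Symbols, positions and exon lengths came from GENCODE vM21, which named 52489 of the 52636 identifiers. edgeR 4.0.16 in R 4.3.3 tested all genes (TMM, genes kept by filterByExpr at 10 counts and 15 in total, quasi-likelihood test, two-sided, Benjamini-Hochberg over the tested genes, threshold 0.05). DESeq2 1.42.0, other scalings and filters, a stricter threshold of 0.01, a minimum absolute log2 change of 1, a replicate block and leaving out each library were alternatives. Tables and exact permutation tests used Python 3.11.15, scipy 1.17.1, pandas 2.3.3 and numpy 2.4.6, with matplotlib 3.10.9 for figures. Intervals of 95% are of the log2 fold change. The floor of 3 counts covers counting error only. One fixed marker list is not reported in full here.

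Same-numbered vehicle and LPS libraries deviated together from their group means over 8010 genes. The r was 0.373, 0.196, 0.171 and 0.108 for replicates 1 to 4, each over 0.1. Same-numbered libraries were therefore also compared as pairs, in the pair differences, the sign flips and the replicate block. The main edgeR fit and the exact permutation test did not use the replicate numbers. Vehicle 2 with LPS 4 (0.146) and vehicle 4 with LPS 2 (0.137) also exceeded 0.1 and the value of replicate 4, so these values do not settle the pairing of replicates 2 and 4. No 2 libraries agreed within sampling noise.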

Additional observations from a re-analysis of the deposited data

Results flagged for a closer look

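In a group of 4, a library was marked when its gap to the nearest other library exceeded Dixon's critical share of the group's range at the 95% level. Of 36 groups, counted over the 10 genes and 8 ratios, 5 held such a library, where chance marks about 1 in 20, and several ratios share a gene. LPS library 3 stood apart for Ly86 (gap of 0.963 of the range), above the other 3, and for Irak2 (0.840), below them. Vehicle library 3 stood below the others for Tirap (0.899), where the whole range was narrow. LPS library 1 stood above the others for Irak3 (0.883), and vehicle library 1 for the ratio of Cd14 to Tlr4 (0.947). Without LPS library 3 the log2 fold change was -2.23 for Ly86 and 2.32 for Irak2. Without LPS library 1 it was 3.63 for Irak3, and without vehicle library 3 it was 1.26 for Tirap. Without vehicle library 1 the difference in the Cd14 to Tlr4 ratio was 1.54 on the log2 scale, and without LPS library 1, the highest of its group, it was 0.88.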

How the results depend on the processing

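The numbers of genes called higher (6) and lower (2) among the 10 were the same with DESeq2, with DESeq2 size factors in edgeR, without a filter on low counts, at an adjusted p of 0.01 and when any library was left out. With upper quartile scaling, library totals only, or at least 10 counts in every library, Irak4 was also called lower (log2 fold change -0.40, -0.91 and -0.30), and over the other alternatives its edgeR or DESeq2 adjusted p went up to 0.401, reached without vehicle library 3, where the log2 fold change was -0.11 in place of -0.24. Leaving out 1 library gave -0.40 (LPS library 3) to -0.16 (LPS library 1) for the ratio of Ticam1 to Myd88 and -0.38 (vehicle library 3) to -0.12 (vehicle library 4) for that of Tirap to Myd88. With an absolute log2 fold change of at least 1 also required, by construction fewer genes passed, 5222 in place of 8877, and among the 10 genes 1 was lower in place of 2, since Cd180 at -0.98 fell just short. Cd14, which was not called under any alternative, changed sign to -0.10 with upper quartile scaling, -0.62 with library totals only and -0.00824 with at least 10 counts in every library, and it ranged from -0.29 to 0.37 when 1 library was left out, with -0.03 without vehicle library 4 and -0.29 without LPS library 1. The cause was not tested. Leaving out 1 library gave 3.63 to 4.09 for Irak3, -2.23 to -1.75 for Ly86 and -1.21 to -0.86 for Cd180, and 8031 to 9314 genes called in all. With a replicate block, 9044 genes were called, again 6 and 2 of the 10, and it changed no call among them. In the paired form of the ratios, sign flips of the 4 pairs cannot give a p under 0.125. The 8 ratios kept their direction with a pseudocount of 1 CPM per kb and without any 1 library, and the 5 that passed the threshold also did so with the pseudocount.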
